A study of Rattus norvegicus with 8 samples.

Results

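Fos, Fosb, Jun, Junb, Egr1, Egr2, Egr3, Egr4, Nr4a1 and Arc are immediate-early genes, which neurons switch on within minutes of strong activity. The 10 genes were chosen by name, as transcription factors of this early wave together with the synaptic effector Arc, and each is read by 1 probe, so they make up 10 of 41012 distinct probes on the array. Their levels come from male Sprague-Dawley rats, studied conscious, whose medial thalamus was taken for RNA. In the occlusion group 4 rats received tracheal occlusions, brief blocks of the airway lasting 3 to 10 breaths, each followed by about 30 s of recovery, in daily sessions over 10 days. In the control group 4 surgical control rats had daily sessions over the same 10 days without occlusions. The labels do not say what the surgery was, and every rat was killed on day 10, no more than 10 min after its final session. The labels give no age, and 1 array was hybridised per rat.

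Activity in a neuron raises calcium and cAMP, which through kinases act on factors already bound to DNA. CREB at cAMP response elements and serum response factor at CArG boxes then start transcription without new protein synthesis. Fos and Jun proteins pair to form AP-1, the Egr proteins are zinc-finger factors that bind GC-rich sites, Nr4a1 is an orphan nuclear receptor, and Arc acts at synapses in the removal of AMPA receptors. The messages are short-lived, and Fos and Arc are widely used to mark recently active neurons. In tissue RNA, fewer cells of a type and less RNA per cell cannot be told apart.

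Each level is the brightness of a single stretch of 60 bases, and 3 such stretches are shown as examples of what was read. Positions are those in the files, on the rat assembly rn3. The exon or untranslated region under each probe was not determined, since no rn3 annotation was used here. The Fos probe lies at chr6:109564555-109564614 on the plus strand, the Fosb probe at chr1:78746783-78746842 on the minus strand and the Junb probe at chr19:24837607-24837666 on the plus strand.
Fos: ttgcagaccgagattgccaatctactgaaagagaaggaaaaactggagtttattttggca
Fosb: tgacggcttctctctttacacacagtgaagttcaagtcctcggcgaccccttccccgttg
Junb: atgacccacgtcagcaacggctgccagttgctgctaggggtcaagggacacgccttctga
The Jun probe lies at chr5:115363990-115364049 (minus strand), the Egr1 probe at chr18:27373819-27373878 (plus), the Egr2 probe at chr20:21897740-21897799 (minus) and the Egr4 probe at chr4:120009770-120009829 (minus). The Arc probe lies at chr7:112806255-112806314 (minus) and the Nr4a1 probe at chr7:140096879-140096938 (plus). Arc, Egr1 and Jun are spotted 10 times on each array and the other 7 genes once, so only these 3 genes have a spread between spots of 1 array.

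Promoters are shown because several of these genes were high together on 1 array, as described further on. The RefSeq promoter table (assembly GRCr8) matched 6 of the 10 genes by symbol, and Fos, Jun, Egr3 and Arc were not matched. The 250 bases before the transcription start are given for the 6, with capitals marking matches to TGACG, the CArG box and the Egr site GCGNGGGCG. Both strands were searched, so a match can stand as its reverse complement. They lie at chr18:26736828-26737077 (plus strand) for Egr1, chr20:21054442-21054691 (minus) for Egr2 and chr4:119607818-119608067 (minus) for Egr4. The others lie at chr7:134259888-134260137 (plus) for Nr4a1, chr19:40080876-40081125 (plus) for Junb and chr1:88089185-88089434 (minus) for Fosb.
Egr1: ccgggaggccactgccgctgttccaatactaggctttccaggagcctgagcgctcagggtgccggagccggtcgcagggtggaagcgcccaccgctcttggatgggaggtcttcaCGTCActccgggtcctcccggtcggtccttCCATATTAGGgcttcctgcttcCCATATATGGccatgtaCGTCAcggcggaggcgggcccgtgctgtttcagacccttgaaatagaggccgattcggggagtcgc
Egr2: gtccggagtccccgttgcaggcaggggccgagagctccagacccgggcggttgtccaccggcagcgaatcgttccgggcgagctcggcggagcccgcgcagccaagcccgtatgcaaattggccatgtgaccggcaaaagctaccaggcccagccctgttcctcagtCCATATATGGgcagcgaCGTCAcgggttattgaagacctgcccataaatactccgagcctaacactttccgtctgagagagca
Egr4: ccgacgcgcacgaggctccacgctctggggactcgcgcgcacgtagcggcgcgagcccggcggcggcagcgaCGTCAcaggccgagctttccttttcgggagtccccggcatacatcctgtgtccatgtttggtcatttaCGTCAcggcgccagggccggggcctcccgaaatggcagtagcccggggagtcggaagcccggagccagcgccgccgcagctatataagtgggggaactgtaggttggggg
Nr4a1: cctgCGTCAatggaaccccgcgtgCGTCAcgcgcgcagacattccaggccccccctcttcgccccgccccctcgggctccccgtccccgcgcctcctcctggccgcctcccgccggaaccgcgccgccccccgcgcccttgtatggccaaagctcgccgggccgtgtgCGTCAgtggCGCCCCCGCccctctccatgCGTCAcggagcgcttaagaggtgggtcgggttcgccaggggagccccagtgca
Junb: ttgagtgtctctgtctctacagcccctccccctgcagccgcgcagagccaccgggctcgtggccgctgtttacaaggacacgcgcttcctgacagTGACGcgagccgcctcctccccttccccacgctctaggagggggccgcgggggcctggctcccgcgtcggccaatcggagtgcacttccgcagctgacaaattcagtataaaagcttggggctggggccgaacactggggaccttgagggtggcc
Fosb: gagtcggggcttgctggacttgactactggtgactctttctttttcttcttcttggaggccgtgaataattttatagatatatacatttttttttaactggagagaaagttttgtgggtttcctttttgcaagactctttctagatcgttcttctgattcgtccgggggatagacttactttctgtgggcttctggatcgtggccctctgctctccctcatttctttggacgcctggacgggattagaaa
TGACG, the core of the cAMP response element, stood in 5 of these 6 windows (Egr1, Egr2, Egr4, Nr4a1 and Junb), against 18.2% of 33469 promoter windows of the same length and 28.0% of the 8454 windows with at least 60% GC. The Nr4a1 window held 4 matches, Egr1 and Egr4 held 2 each, and Egr2 and Junb held 1 each. The complete element TGACGTCA, which contains this core, stood in 0 of 6 windows and in 1.59% of all. CArG boxes stood in Egr1 (2 matches, 105 to 96 and 83 to 74 bases before the start) and Egr2 (1 match, 83 to 74 bases before), against 1.5% of all windows and 0.793% of the GC-rich ones. Egr1 and Egr2 held the same box, CCATATATGG, at the same distance, and the same core, read as its reverse complement, 66 to 62 bases before the start. The Egr site was matched in Nr4a1 only, 73 to 65 bases before the start, against 4.29% of all windows and 14.9% of the GC-rich ones. The AP-1 site TGANTCA (6.34% of all windows) and the Nr4a1 site AAAGGTCA (1.24%) were matched in none of the 6. The Fosb window was 43.6% GC and the other 5 were 62.0% to 74.8% GC. A match describes letters and is no evidence of binding.

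Levels are given as log2 of the processed signal minus the 75th percentile of its array, so a level above 0 is brighter than that percentile. Levels of different probes are not compared. The share of spots well above background ran from 65.0% to 71.6% over the arrays, and the percentile lay between 1439 and 2216. The arrays lay on 2 slides, with occlusion 1 and 3 and control 1 and 4 on slide 1 and the other 4 arrays on slide 2. Relay neuron markers were well above background on all 8 arrays for each of the 11 genes kept out of 13. Control 3 stood apart in markers: its 6 habenula markers were all the lowest of the 8 arrays, with 2 of 6 well above background, and its GABA neuron markers were high. Habenula markers were also low on occlusion 3 and control 4, by less. Results are therefore given with and without control 3.

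No immediate-early gene passed the test between occlusion and control arrays, and the spread between rats was wide for most of them. Of the 10 probes 9 passed the filter on dim signal, and limma called 0 of these 9 at an adjusted p under 0.05, as it called 0% of all 27154 probes tested. At an unadjusted p under 0.05 the count was 0 of 9, against 11.1% of all probes (6.48% higher and 4.61% lower on occlusion arrays). In 0 of 9 did the groups not overlap, against 6.71% of all probes. The mean was lower on occlusion arrays for 5 of the 9 genes and for 46.4% of all probes, and higher for 4 genes and 53.6% of all probes. With 4 rats against 4, the exact permutation test over 70 assignments cannot go below a p of 0.0286.

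**Figure D1:**
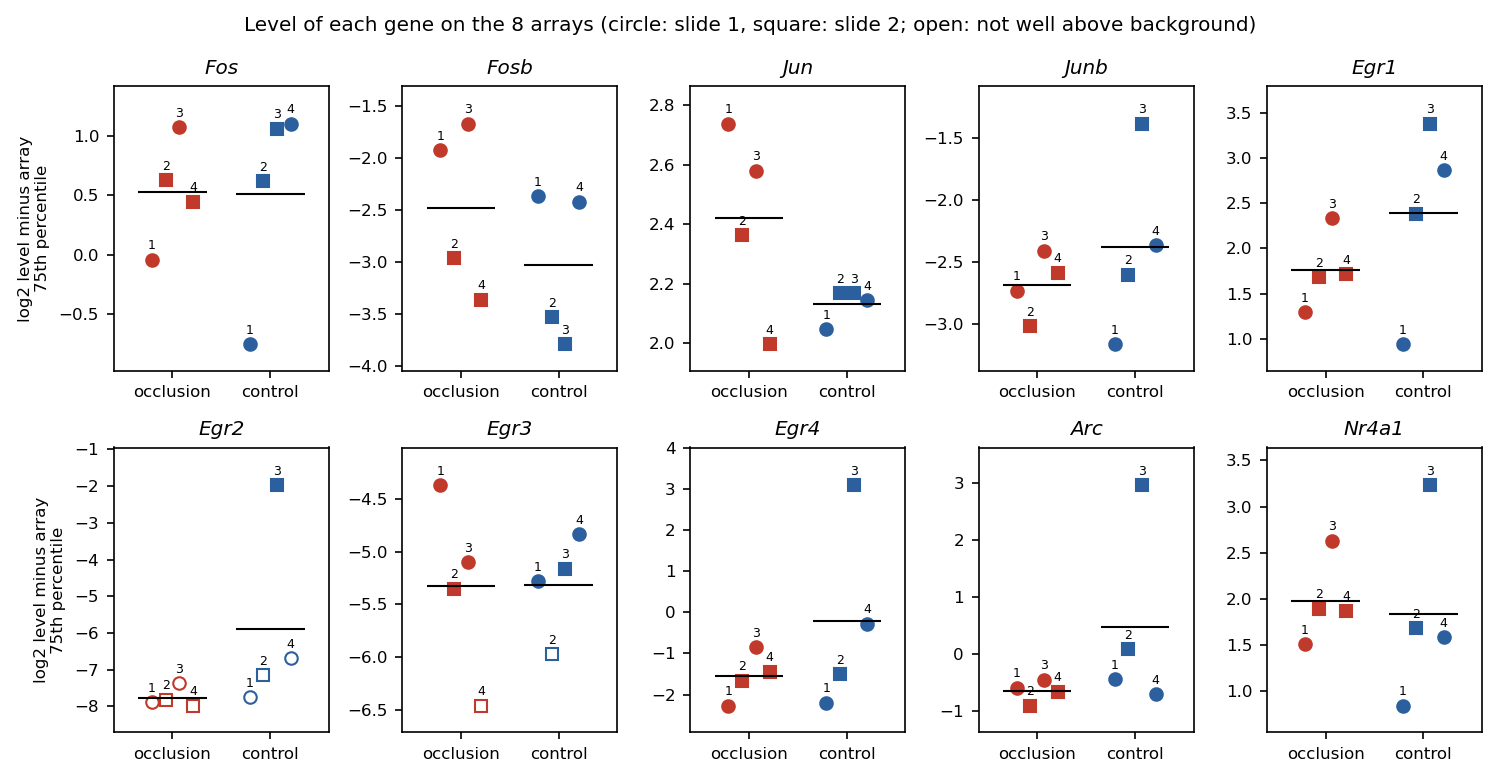
Level of each of the 10 genes on every array (y axis, log2 minus the array's 75th percentile, its own scale per gene), occlusion in red and control in blue, with array numbers, slides as circles and squares, group means as lines and open symbols for signals not well above background. Control 3 is the highest array for Junb, Egr1, Egr2, Egr4, Arc and Nr4a1, and the groups overlap for all 10 genes.

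Fos, a partner in AP-1 and the classical activity marker, read -0.04, 0.63, 1.07 and 0.45 on occlusion arrays 1 to 4 and -0.76, 0.62, 1.06 and 1.104 on control arrays 1 to 4. Control 1 was the lowest of all, and occlusion 3, control 3 and control 4 lay close together at the top. The means were 0.53 ± 0.46 (SD, n = 4) and 0.51 ± 0.87, a log2 difference of 0.02 (SE 0.43, limma adjusted p = 0.992, exact permutation p = 0.914). The rats of each group differed from one another by more than the group means did. Without control 1 the difference was -0.40 (SE 0.27).

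Fosb, a close relative of Fos that also pairs with Jun proteins, read -1.92, -2.96, -1.67 and -3.36 on occlusion and -2.37, -3.53, -3.80 and -2.42 on control arrays. In each group the slide 1 arrays were the high ones, and no slide 2 array reached them. The means were -2.48 ± 0.81 (SD, n = 4) and -3.03 ± 0.74, a difference of 0.55 (SE 0.47, limma adjusted p = 0.688, exact permutation p = 0.371). With the slide as a block the SE fell to 0.13 and the adjusted p was 0.242, the lowest for any of the genes under any setting tried.

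Jun, the partner of Fos proteins in AP-1, read 2.74, 2.36, 2.58 and 1.996 on occlusion and 2.05, 2.17, 2.17 and 2.14 on control arrays. The control arrays lay within a narrow band, while occlusion arrays 1 to 3 lay above all controls and occlusion 4 below them. The difference was 0.29 (SE 0.16, limma adjusted p = 0.527, exact permutation p = 0.143), with means of 2.42 ± 0.32 (SD, n = 4) and 2.13 ± 0.06. Among the 10 spots of 1 array the SD ran from 0.05 on control 4 to 0.21 on occlusion 1. Junb, a Jun relative that tempers Jun activity, read -2.73, -3.01, -2.41 and -2.58 on occlusion and -3.16, -2.60, -1.38 and -2.36 on control arrays. Its control arrays held both the lowest value (control 1) and the highest (control 3). The difference was -0.31 (SE 0.34, limma adjusted p = 0.769, exact permutation p = 0.543) and 0.03 (SE 0.23) without control 3.

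Egr1, the most studied of the Egr factors and also known as Zif268, read 1.29, 1.68, 2.34 and 1.71 on occlusion and 0.94, 2.38, 3.38 and 2.86 on control arrays. Controls 2, 3 and 4 lay above every occlusion array and control 1 below every one. The means were 1.76 ± 0.43 (SD, n = 4) and 2.39 ± 1.05, a difference of -0.64 (SE 0.49, limma adjusted p = 0.648, exact permutation p = 0.314). It was -0.31 (SE 0.46) without control 3 and -1.12 (SE 0.31) without control 1.

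Egr4 read -2.27, -1.66, -0.84 and -1.44 on occlusion and -2.19, -1.51, 3.09 and -0.27 on control arrays. Control 3 stood far above the rest, and the other 3 controls covered about the same range as the occlusion arrays. The difference was -1.33 (SE 1.03, limma adjusted p = 0.649, exact permutation p = 0.343), and -0.23 (SE 0.49) without control 3. Egr3 read -4.37, -5.35, -5.10 and -6.46 on occlusion and -5.28, -5.97, -5.16 and -4.84 on control arrays, and was not well above background on occlusion 4 and control 2, the lowest array of each group. Its difference was -0.01 (SE 0.43, limma adjusted p = 0.997, exact permutation p = 0.971). Egr2 was not kept, since its probe was well above background on control 3 alone. It read -7.88, -7.81, -7.36 and -7.98 on occlusion and -7.75, -7.15, -1.97 and -6.68 on control arrays, where every value except that of control 3 was not well above background. On control 3 it was at least 12.4-fold above the mean floor of the other 7 arrays and at least 11.2-fold above that of the other 3 controls.

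Nr4a1, a nuclear receptor that needs no known ligand and is induced alongside Fos, read 1.51, 1.90, 2.63 and 1.87 on occlusion and 0.84, 1.68, 3.23 and 1.58 on control arrays. Control 3 was the highest and control 1 the lowest, with all occlusion arrays between. The difference was 0.14 (SE 0.48, limma adjusted p = 0.941, exact permutation p = 0.800), and 0.61 (SE 0.31, adjusted p = 0.664) without control 3. Arc, the only member of the set that is no transcription factor, read -0.60, -0.92, -0.46 and -0.67 on occlusion and -0.45, 0.07, 2.96 and -0.71 on control arrays. Apart from control 3, 7 arrays lay within 1 log2 unit. The means were -0.66 ± 0.19 (SD, n = 4) and 0.47 ± 1.70, a difference of -1.13 (SE 0.73, limma adjusted p = 0.578, exact permutation p = 0.171). Without control 3 it was -0.30 (SE 0.21, adjusted p = 0.746). Without control 3 the mean was lower on occlusion arrays for 3 of the 9 genes, Egr1, Egr4 and Arc.

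**Figure D2:**
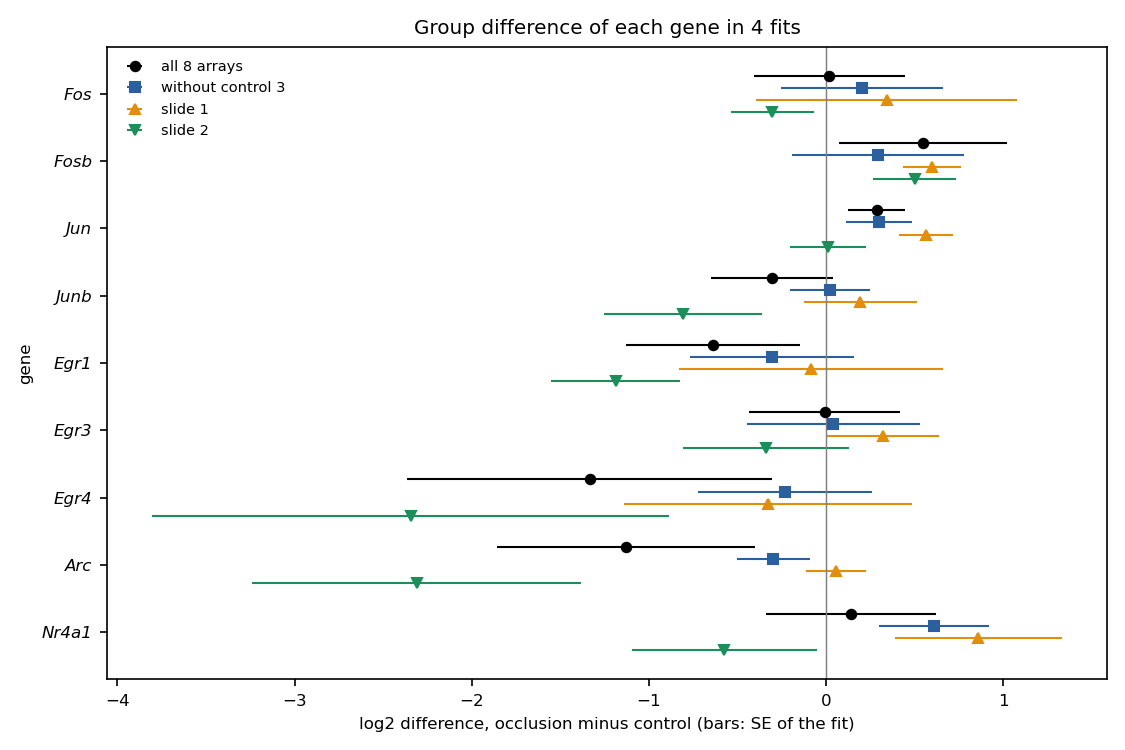
Difference between the groups for the 9 genes that passed the filter (x axis, log2 occlusion minus control, bars 1 SE), for all 8 arrays, without control 3, and within each slide. Arc moves from -1.13 to -0.30 and Egr4 from -1.33 to -0.23 without control 3, and both lie lower within slide 2, which holds control 3, than within slide 1.

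Control 3 was the array on which these genes were most often highest. There 5 of the 9 (Junb, Egr1, Egr4, Arc and Nr4a1, or 55.6%) had their top value. The share was 17.7% among the 26054 probes that passed the filter and had a value on every array. Egr4 was 4.60 log2 units above the median of the other 7 arrays (24.2-fold) and 10.3-fold above the next array. Its excess over that median was the fourth-largest on control 3 among those 26054 probes. Arc was 3.56 above (11.8-fold, rank 27) and 7.40-fold above the next array, with an SD of 0.05 over its 10 spots. Egr1 (1.67, 3.19-fold, rank 218), Nr4a1 (1.55, 2.94-fold, rank 278) and Junb (1.22, 2.33-fold, rank 550) followed. Egr2 had not passed the filter and was not ranked. It read -1.97 on control 3 and -7.98 to -6.68 on the other arrays, where it was not well above background.

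The excess was not shared by the whole set. Fos was 0.44 above the median of the other arrays on control 3, Egr3 0.12 above and Jun level with it. Fosb was 1.37 below and had its lowest value there. Among the 6 genes in the promoter table, Junb, Egr1, Egr2, Egr4 and Nr4a1 held TGACG in the window shown and were highest on control 3, and Fosb held none and was lowest there. Fosb was low on all of slide 2, however, reading -3.80 on control 3 and -3.53 on control 2, and with 6 genes this is a description only. Arc, Fos, Jun and Egr3 had no promoter window here, and the motifs were chosen after the levels were seen. Whether TGACG had a part in the excess was not tested. Other arrays departed by less. On control 1 Fos, Junb, Egr1 and Nr4a1 had their lowest values, 4 of 9 genes against 5.84% of all probes. On occlusion 3 all 9 genes lay above their median of the other 7 arrays, against 59.3% of all probes, by a median of 0.46. Over all probes, 3.30% lay more than 1 log2 unit above the other arrays' median on control 3, against 5 of these 9 genes.

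**Figure D3:**
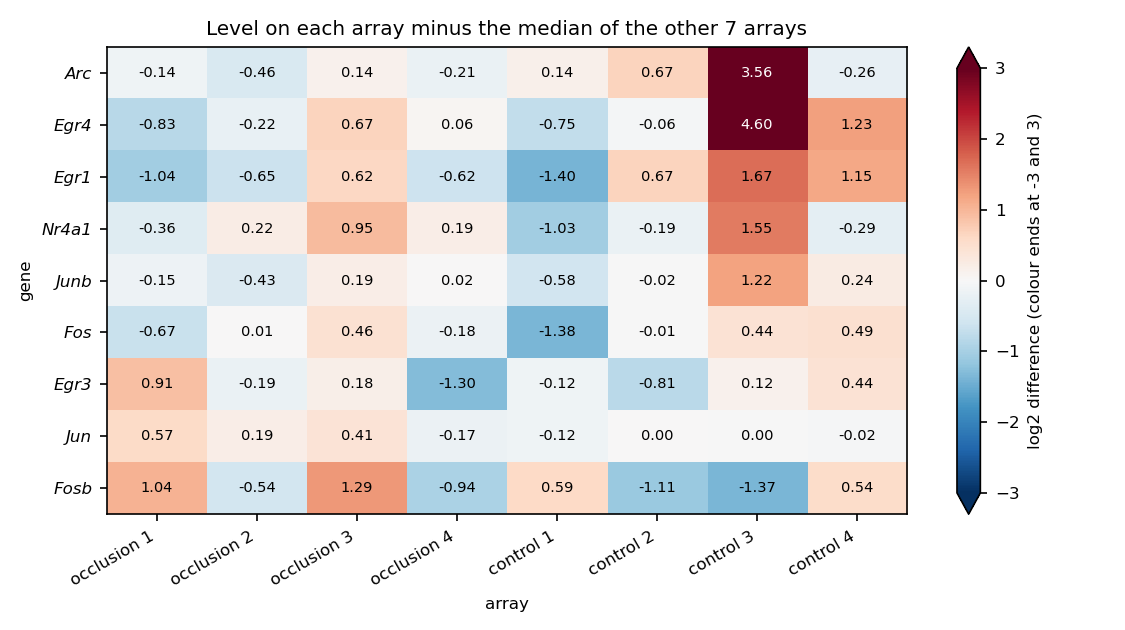
Level on each array minus the median of the other 7 arrays (numbers and colour, log2) for the 9 genes that passed the filter, with arrays as columns. The control 3 column runs from 4.60 for Egr4 to -1.37 for Fosb, and the control 1 column is below 0 for 7 of the 9 genes.

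Cell-type markers also departed on control 3. On control 3 all 9 markers of GABA neurons and the reticular nucleus lay above the other arrays' median, by a median of 2.17, and 6 were the highest of the 8 arrays. Gad1 lay 2.89 and Gad2 3.11 above that median. The mean of that list was 1.23 on control 3, -0.57 to -0.37 on the other controls and -2.19 to -0.34 on occlusion arrays. Of 11 relay neuron markers 10 lay below the other arrays' median, with a median departure of -1.36 and a list mean of -0.02 against 0.27 to 1.07 on the other controls and 1.02 to 1.54 on occlusion arrays. For 6 habenula markers the median departure was -3.84, with a list mean of -4.58 on control 3 against -2.003 to 0.94 on the other controls and -3.06 to 0.10 on occlusion arrays. Of 10 oligodendrocyte markers with a value on every array 8 were highest on control 3 (median 0.68). Striatal genes included Penk (1.62 above) but had a median of 0.05 over 13 genes. Neurod2 and Slc17a7, genes of cortical excitatory neurons, were at -5.15 and -2.22, and 6 of the 9 kept genes of the cortex and hippocampus list were well above background there. Markers departed on other arrays too. On occlusion 3 the median departure was 1.34 for hypothalamus markers (9 of 9 above the other arrays' median, 7 highest), -2.10 for habenula and 0.60 for GABA markers. On control 4 it was 0.63 for hypothalamus and -1.92 for habenula markers. The mean of the 9 standardised immediate-early genes was highest on these arrays, at 1.07 SD units on control 3, 0.56 on occlusion 3 and 0.25 on control 4. The habenula list was lowest on the same 3 arrays. By list mean, the striatum list was highest on these 3 arrays, at -0.79 on control 3, -0.99 on occlusion 3 and -1.065 on control 4. Its median departure on control 4 was -0.04, however. The microglia list mean was also highest on these arrays, at 0.68 on occlusion 3, 0.67 on control 3 and 0.52 on control 4. Relay and oligodendrocyte markers had another order. Relay markers departed by a median of -1.07 on control 2, where the immediate-early mean was -0.28. Oligodendrocyte markers departed by a median of -0.53 on occlusion 3. The part of cell makeup in the levels of the immediate-early genes was not tested.

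Between the groups, the mean was higher on occlusion arrays for 11 of 11 relay markers (median 0.64) and 5 of 6 habenula markers (median 0.41). It was lower for 8 of 9 GABA markers (median -1.35) and 11 of 13 oligodendrocyte markers (median -0.42). Of all probes 53.6% were higher and 46.4% lower. Limma called 0 genes of these 4 lists (smallest adjusted p 0.403). At an unadjusted p under 0.05 the counts were 5 of 11, 0 of 6, 4 of 9 and 6 of 13, against 11.1% of all probes. Of those 6 oligodendrocyte markers 5 were lower and 1 higher. Other marker lists gave 4 of 7 (choroid plexus), 3 of 9 (cortex and hippocampus), 2 of 13 (striatum) and 1 of 10 (astrocytes). Hypothalamus, microglia, and endothelium and blood gave 0. The part of the cell-type markers in the differences of the immediate-early genes was not tested.

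**Figure D4:**
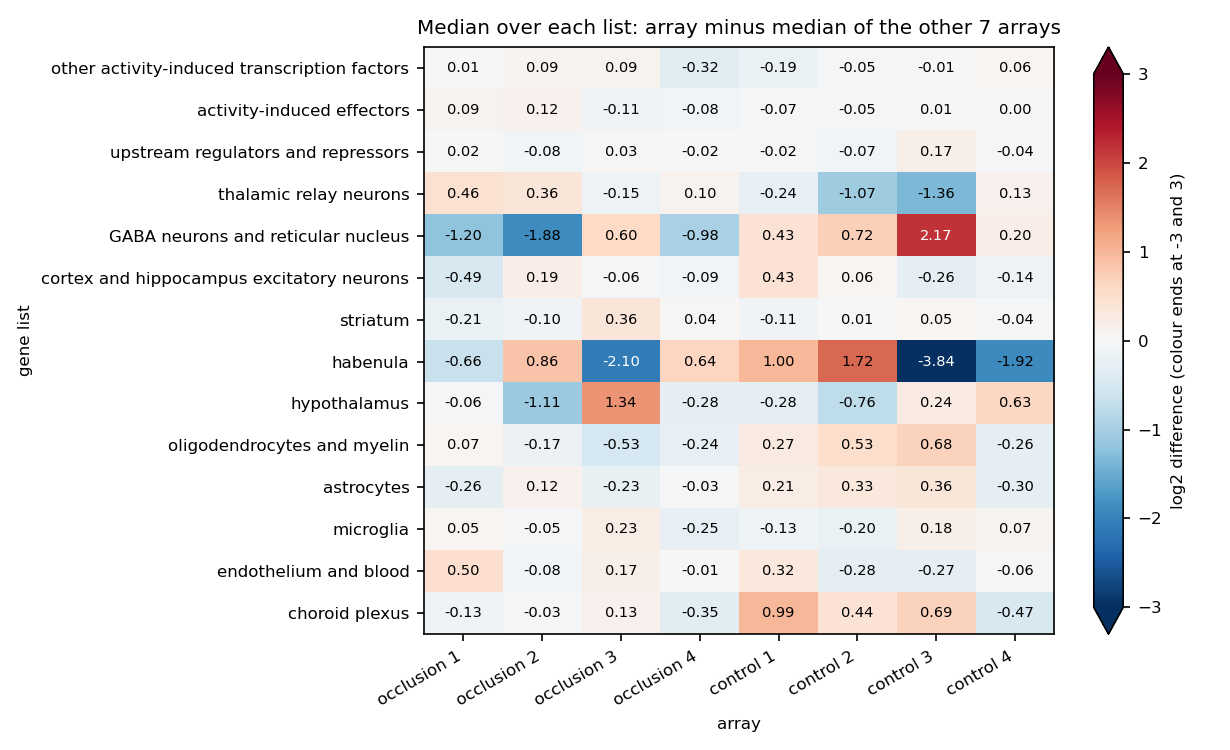
Median over each gene list (rows) of the level on an array minus the median of the other 7 arrays (columns; numbers and colour, log2). The 3 activity lists stay within -0.32 and 0.17, whereas on control 3 the GABA list is at 2.17, the relay list at -1.36 and the habenula list at -3.84.

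Group differences were also taken within each slide. Within slide 1 and slide 2 the difference was 0.06 and -2.31 for Arc, -0.32 and -2.34 for Egr4, -0.09 and -1.19 for Egr1, and 0.20 and -0.81 for Junb. It was 0.86 and -0.57 for Nr4a1, 0.34 and -0.30 for Fos, and 0.32 and -0.34 for Egr3. Jun gave 0.56 and 0.01, and Fosb, with 0.60 and 0.50, was the gene with the closest values. For the difference between slides limma called 0 of 9 genes and 0% of 26054 probes, and at an unadjusted p under 0.05 it was 0 of 9 genes against 4.31% of probes. The lowest unadjusted p was that of Jun (-0.55, SE 0.25, adjusted p = 0.957).

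Fosb was the gene that differed between the slides themselves. It was 1.32 higher on slide 1 (SE 0.13, limma with the group in the fit, adjusted p = 0.000649), and the slides did not overlap. Of all probes 7.16% were called in this comparison and 10.6% did not overlap between slides. The other 8 genes were not called, with Egr3 at 0.84 (SE 0.33, adjusted p = 0.253), and Arc at -0.92 (SE 0.68, adjusted p = 0.604).

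Across the 8 arrays several of these genes varied together. Of 36 pairs 24 had a positive Pearson r, 9 had an unadjusted permutation p under 0.05 and 4 passed Benjamini-Hochberg adjustment over the pairs. No share over pairs of other probes is given here, so the counts do not show whether this set varied together more than other genes. Junb and Egr4 gave r = 0.948 (exact permutation p = 0.00141, adjusted 0.0179; rho 0.929), r = 0.733 without the 2 arrays farthest from the Junb median and r = 0.787 without control 3. For Junb and Egr1 r was 0.882 (exact permutation p = 0.00149, adjusted 0.0179; rho 0.905), 0.718 without the 2 farthest arrays and 0.836 without control 3. For Egr1 and Egr4 r was 0.863 (exact permutation p = 0.000372, adjusted 0.0134; rho 0.905), 0.904 without the 2 farthest arrays and 0.914 without control 3. Fos and Egr1 gave 0.871 (exact permutation p = 0.00347, adjusted 0.0313; rho 0.786), and 0.785 and 0.907 in the same reduced sets. By Spearman's rho 0 pairs passed the adjustment, the smallest adjusted p being 0.0548, and 6 had an unadjusted p under 0.05. After removal of slide means the 4 values of r were 0.944, 0.872, 0.850 and 0.860 in the order given. A slide holds 4 arrays, too few for a value of its own.

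Arc did not follow the Egr genes beyond control 3. With Egr4 it gave r = 0.893 over 8 arrays (exact permutation p = 0.0694, adjusted 0.201; rho 0.190) but -0.10 without control 3, so that relation rests on this array. Junb and Arc likewise gave 0.856 and, without control 3, 0.165. Fos and Arc, both used to mark active neurons, gave r = 0.315 (exact permutation p = 0.445, adjusted 0.712). Fosb had a negative r with Fos, Junb, Egr1, Egr4, Arc and Nr4a1, from -0.57 with Arc to -0.22 with Fos, none past the test. Without control 3 the sign turned with Junb (0.11), Egr4 (0.058) and Nr4a1 (0.15) and r with Arc was -0.24. With slide means removed it turned with Fos (0.088) and Nr4a1 (0.098).

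**Figure D5:**
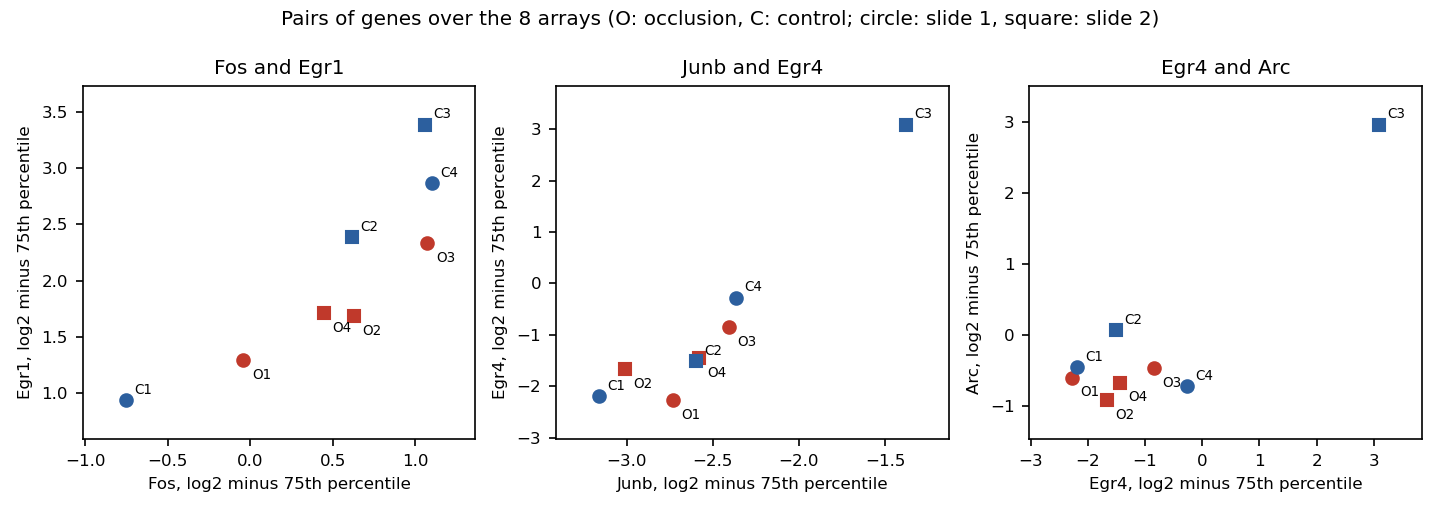
Levels of 3 pairs of genes on the 8 arrays (both axes log2 minus the array's 75th percentile; O occlusion in red, C control in blue; circles slide 1, squares slide 2). Fos with Egr1 and Junb with Egr4 lie along a line over the arrays, whereas Egr4 with Arc has 1 distant point, control 3.

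Outside the set, the genes whose levels most resembled these were found by Pearson r over the 8 arrays among 26054 probes, as a description. For the mean of the 9 standardised genes they were Drosha (r = 0.957), the microRNA-processing enzyme, Kcns1 (0.941), a potassium channel subunit, Pde9a (0.941), a cGMP phosphodiesterase, Marchf6 (0.936) and Ppp1r18 (0.934). For Arc they were Nuf2 (0.993), Ptpn18 (0.991), Ski (0.990), Rasa3 (0.984) and Palmd (0.983), and without control 3 these fell to between 0.613 and 0.864. For Fos they were Inpp5d (0.962), a lipid phosphatase of blood-derived cells, LOC678914 (0.905), LOC679253 (0.905), Fam234a (0.903) and Stk38 (0.90), which kept 0.887 to 0.975 without control 3.

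Other genes of the activity-induced program were read from 3 lists. Of 24 further activity-induced transcription factors 21 were kept, 11 higher and 10 lower on occlusion arrays with a median of 0.11. For 30 effectors the counts were 27 kept, 15 higher and 12 lower, median 0.11. For 22 upstream regulators and repressors they were 18 kept, 9 higher and 9 lower, median 0.00, while the median of all probes was 0.02. Limma called 0 genes in each list, and at an unadjusted p under 0.05 the counts were 2 of 21 (9.52%), 3 of 27 (11.1%) and 2 of 18 (11.1%), against 11.1% of all probes, so no list exceeded that background. The genes at either end of each list are named below as a description. Npas4, a neuron-specific immediate-early factor, did not pass the filter.

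Among the factors, Klf10 read -0.56 (SE 0.17) and Tsc22d3, a glucocorticoid-induced gene, -0.39 (SE 0.17), with Klf6 at 0.45 (SE 0.20) and Arid5a at 0.79 (SE 0.34) at the other end. Among the effectors, Plk2, a synaptic kinase, read -0.68 (SE 0.23) and Ptgs2, the inducible cyclooxygenase, -0.78 (SE 0.33), against the MAP kinase phosphatases Dusp1 (0.57, SE 0.33) and Dusp6 (0.54, SE 0.19). Among the regulators, Nab2 (-0.54, SE 0.29) and Nab1 (-0.34, SE 0.19), corepressors of Egr factors, stood at the low end. Camk4, a calcium-dependent kinase upstream of CREB, read 0.69 (SE 0.20) and Mef2a 0.82 (SE 0.22, 3 occlusion arrays). Their limma adjusted p lay between 0.403 and 0.532. On control 3 the medians of the lists did not share the excess of Arc and Egr4: the median departure from the other arrays was -0.01, 0.01 and 0.17. Single genes departed by more, from 1.48 for Dusp5 to -3.01 for Nptx2. Control 3 was the highest array for 5 of 21, 5 of 24 and 6 of 16 genes with a value on every array, against 17.7% of all probes. It was the lowest for 4, 7 and 1 of them, against 21.2%. The highest array of both Nab genes was nevertheless control 3, at -2.51 for Nab2 and -3.51 for Nab1.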

How the data were processed

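RNA (1 µg per array) from 8 rats was labelled with Cy3, and replicates were taken as separate animals. Agilent Feature Extraction (version 9.5.1.1, per the file headers) read the scans, and the deposited processed intensity of each spot is background-subtracted, linear and not scaled between arrays. The design text speaks of a reference design, but each array has 1 channel. Spots flagged as outliers were left out, log2 intensity was scaled to the 75th percentile of each array and spots of a probe were averaged. Probes had to be well above background on at least 4 of 8 arrays with at least 2 values per group, which left 27154. Groups were compared with limma 3.58.1 in R 4.3.3 (two-sided, Benjamini-Hochberg, threshold 0.05). The script was tested on simulated data. The Egr2 fold is a lower bound: on each dim array the probe was set to the dimmest signal of any probe well above background, or to its own where that was brighter.

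Named are all 10 genes, in each activity list the 2 genes at either end of the moderated statistic, and the 5 genes most correlated with the mean of the set, with Arc and with Fos. The promoter motifs, the markers named on control 3 and the Nab, Dusp5 and Nptx2 levels there were chosen after their values were seen. The genes and lists were chosen with earlier results of these data known. Slide and scan time coincide and form 1 batch. Alternatives were other scalings (quantile, median), normexp background correction (offset 50), other filters and variance models, slide and replicate as blocks, each slide alone, each array left out and the deposited table of all arrays. The comparison of slide 1 with slide 2 was added after seeing the data. Figures were drawn with matplotlib 3.10.9 in Python 3.11.15. The number of arrays limits the precision. Some genes of the marker lists and the sequences of the other 7 probes are not reported here.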

Additional observations from a re-analysis of the deposited data

How the results depend on the processing

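No immediate-early gene was called under any alternative, and over all probes the count was 0 except with normexp background correction, where it was 1. Fosb, Jun, Egr1 and Egr4 kept their direction under every alternative, but not their size. Array weights, which give arrays that fit the model poorly less say, moved Egr1 to -0.03, Egr4 to -0.38, Arc to -0.55, Fosb to 0.17, Fos to 0.53 and Nr4a1 to 0.61. Without occlusion 1 Jun read 0.18. The direction turned within slide 1 for Junb (0.20), Egr3 (0.32) and Arc (0.056), and within slide 2 for Fos (-0.30) and Nr4a1 (-0.57). It also turned with array weights for Junb (0.028) and Egr3 (0.10), and with scaling to the median for Egr3 (0.018). Leaving out 1 array gave 0.28 to 0.84 for Fosb and -0.40 to 0.22 for Fos (also -0.01 without occlusion 2 and -0.16 without occlusion 3). Without control 3 Junb read 0.026. Nr4a1 ranged from -0.19 (without control 1) to 0.61 (without control 3), and was -0.08 without occlusion 3. Egr3 ranged from -0.32 (without occlusion 1) to 0.37, and read 0.0024, 0.37, 0.0029, 0.04 and 0.15 without occlusion 2, occlusion 4, control 1, control 3 and control 4. The cause was not tested. The number of genes highest on control 3 was 5, and 6 with quantile normalisation. With the replicate number as a block limma called 0 probes (smallest adjusted p 0.453) and 0 of the 9 genes. Deviations of same-numbered arrays correlated at 0.355, 0.514, -0.07 and -0.29, so the numbers were not taken to pair the arrays. Egr2 and, on 2 arrays, Egr3 were limited by signal near background.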
